A study of Xenopus laevis with 18 samples.

Results

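Of 31357 gene models measured in whole embryos of the African clawed frog Xenopus laevis, 213 had a median near 0 over the early stages. They first held a set minimum level at stage 16 or stage 18 and were present in the tailbud embryo. They were chosen by their values in TPM (the share of a library's transcripts, corrected for transcript length and scaled to a fixed total). The early median, over stages 0, 2, 6, 6.5 and 7, had to be under 0.5 TPM, the maximum at least 10 and under 100 TPM, and the mean of stages 23, 26, 30 and 33 at least 25% of the maximum. A maximum in 1 of these 4 libraries meets the last condition by itself, as in 204 of the members. Onset was scored at the earliest library, beginning with stage 8, that reached 1 TPM and was followed by another at 1 TPM or above. It fell at stage 16 in 99 members and at stage 18 in 114. These values are what made the set, so they are described here and carry no test.

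Stages are those of Nieuwkoop and Faber, the standard numbering of Xenopus development. Stages 16 and 18 lie in the middle of the neurula, when the neural plate rolls up into the neural tube, neural crest cells gather at its edges and the mesoderm beside the notochord is cut into somites. Genes first read at this time commonly serve the specification and early differentiation of these tissues, and in the tailbud that follows muscle, heart, sense organs, kidney and blood take shape. A frog egg carries a large store of maternal mRNA, and broad transcription by the embryo starts at the mid-blastula transition, so a transcript that first appears in the neurula comes long after that switch. Which of these tissues the 213 models belong to cannot be read from the table: it knows them by identifier only, and 0 of its identifiers matched the RefSeq table of the Xenopus laevis genome, so no gene name, role or sequence is given.

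Each of 18 stages was sampled by 1 library of poly(A)-selected RNA from J strain embryos, all untreated and all raised in the same saline with gentamycin; the labels name no other difference than the stage. No stage was replicated, and nothing in the labels says whether the embryos came from 1 clutch. In whole embryos more cells of a type and more RNA per cell cannot be told apart, and with poly(A) selection neither can a longer tail. The columns of 6 libraries, those of stages 0, 20, 23, 26, 30 and 33, carry a suffix (rr) that the labels do not explain. Models listed at 0 made up 29.7%, 20.7% and 10.5% of all models at stages 18, 20 and 33 in the same stretch in which the members rose; new transcription and a better detection of low models cannot be told apart here. At the level of the members, the error was read from 16 ERCC spike-ins (synthetic RNAs added to the sample) with a tailbud mean of 10 to under 100 TPM. Taken as shares of all spike-ins, they had a median log2 SD of 0.49 over the 4 tailbud libraries (lowest 0.22, highest 0.88).

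The members were of modest abundance, and most lay close to the lower limit of the choice. Their maxima ran from 10 to 96.07 TPM with a median of 17.8, and 119 of the 213 peaked under 20 TPM, 75 between 20 and 50 and 19 at 50 or more. Together they held 0.00966%, 0.0475%, 0.148% and 0.404% of the gene-model TPM at stages 14, 16, 20 and 33. Just inside the lower limit stood a model with a maximum of 10 TPM, and just outside it one at 9.99; 471 models met every condition but this one. At the upper limit the neighbours were 96.07 TPM inside and 101.16 outside. The nearest early medians were 0.45 and 0.63 TPM, and the nearest tailbud means 30.87% and 20.77% of the maximum. The onset itself was a fine line: the highest value at stage 14 among members with onset 16 was 0.99 TPM, and among the models just outside the lowest value at stage 14 was 1.01.

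The median over the members rose across several stages. An onset scored at 1 TPM with a maximum of at least 10 TPM favours such a climb, and a median need not show the course of single models. At the onset stage the members were still low, with a median of 1.81 TPM at stage 16 for onset 16 and 1.83 TPM at stage 18 for onset 18. Over all 213, the median level climbed from 0.34 TPM at stage 14 through 0.92, 2.1 and 5.42 TPM (stages 16, 18 and 20) to 12.57 TPM at stage 23. It then stayed level, with 14.12, 12.78 and 12.43 TPM at stages 26, 30 and 33. As a share of each model's own maximum, the medians were 4.9%, 11.4%, 28.1% and 70.5% at stages 16, 18, 20 and 23. The typical member thus crossed 1 TPM in the middle of the neurula but gained most of its level between stages 18 and 23.

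**Figure D1:**
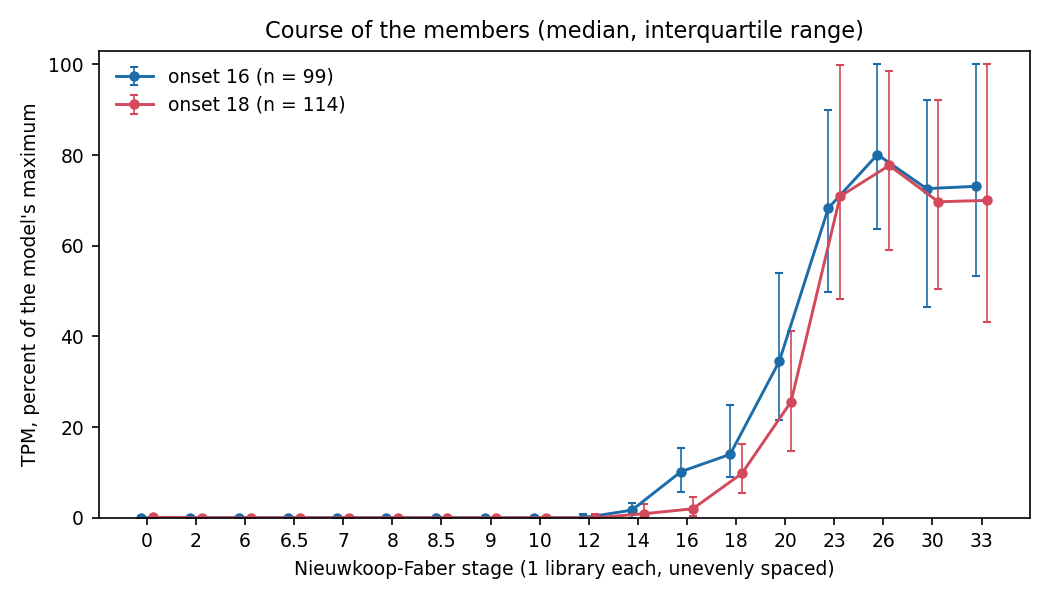
Median TPM of the members at each of 18 stages, as a percent of each model's own maximum, for the 99 models with onset at stage 16 and the 114 with onset at stage 18; bars span the interquartile range over models. Both groups lie at 0.1% or less through stage 12, reach medians of 34.5% and 25.6% at stage 20, and meet at 68.3% and 70.9% at stage 23.

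Most members rose at each step from stage 16 to 23, while the step of the largest gain differed between them. Of the 213, 160 were higher at stage 18 than at 16, higher again at stage 20 and higher again at stage 23. The largest single step, on the log2(TPM + 1) scale, was from stage 20 to 23 in 72 members, from stage 18 to 20 in 55, from stage 16 to 18 in 41 and from stage 14 to 16 in 33. It came after stage 23 in the 12 others: from stage 23 to 26 in 2, from 26 to 30 in 8 and from 30 to 33 in 2. A level of 50% of the maximum was first reached by stage 20 in 51 members (23.9%) and by stage 23 in 161 (75.6%), 110 of them at stage 23 itself. Members at 10 TPM or more numbered 37 at stage 20 and 150 at stage 23.

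Steps of more than 2-fold on the log2(TPM + 1) scale put numbers on the same course. From stage 18 to 20, 109 members (51.2%) rose by more than 2-fold and 6 fell, against 7.3% and 1.1% of 21374 models that reached 1 TPM in 2 or more tailbud libraries. From stage 20 to 23, 116 members (54.5%) rose and 1 fell, against 7.81% and 2.97% of those models. Taken as shares of all spike-ins, none of the 16 spike-ins moved by 2-fold at either step (0 of 16). Such shares leave out any shift of a whole library, and spike-ins made up 5.51% of the TPM at stage 18 and 3.15% at stage 20. The members were also lower at these stages, with medians of 2.1 and 5.42 TPM. These spike-ins thus do not give the error of the members' steps. The step from 18 to 20 crosses from libraries without the suffix rr to libraries with it, whereas the step from 20 to 23 lies between libraries that both carry it; the part of the suffix in the first was not tested. The median step was 1.01 and 1.06 on the log2 scale at these intervals, 0.21 from stage 23 to 26, -0.13 from 26 to 30 and 0.04 from 30 to 33. The stages are unevenly spaced, so these are not rates, and the choice of models that are low before and kept after makes a rise in this stretch a condition rather than a finding.

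A pair of models followed the typical course most closely, taken as the smallest mean distance from the median member over the 18 libraries. XeXenL6RMv10041486m was at 0.37 TPM or less up to stage 14 and then measured 0.96, 2.06 and 4.9 TPM in the neurula libraries of stages 16, 18 and 20 and 12.1, 14.03, 10.26 and 8.75 TPM in the 4 tailbud libraries. XeXenL6RMv10018995m never exceeded 0.14 TPM up to stage 14 and measured 0.77, 2.21 and 5.75 TPM in the same neurula libraries and 13.03, 11.68, 12.41 and 13.12 TPM in the tailbud. Both have their onset at stage 18, and rise at each step to stage 23; the second holds its level from there, and the first is lower again after stage 26.

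**Figure D2:**
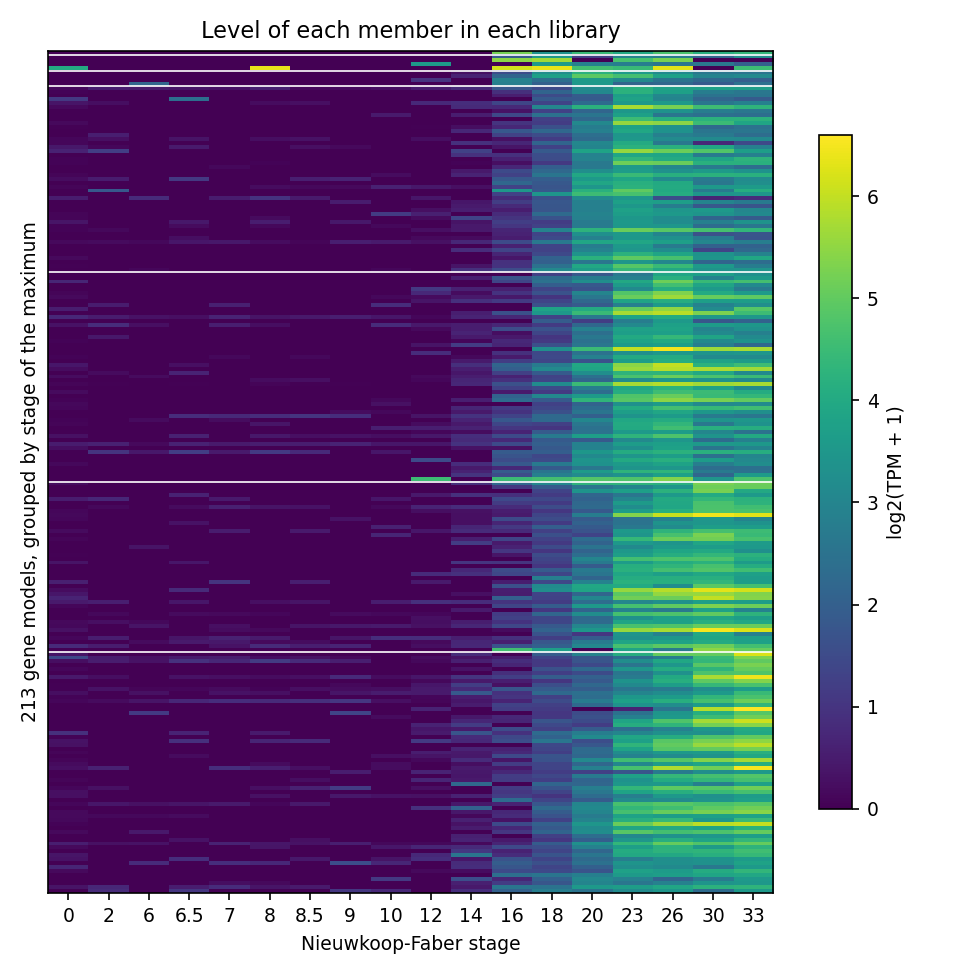
Level of each of the 213 members in each of 18 libraries, as log2(TPM + 1); rows are models, grouped by the stage of their maximum, with white lines between groups. The columns up to stage 14 are nearly empty, the level builds up from stage 16 to 23, and the groups differ in which of the 4 tailbud libraries is brightest.

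Members of both onsets ended at similar levels, within the same limits on the maximum and the tailbud mean. Members with onset 16 were ahead at stage 20, at a median of 6.39 TPM (interquartile range 3.9 to 10.82), against 4.94 TPM (3.28 to 6.69) for onset 18, and 28 of 99 against 9 of 114 were at 10 TPM or more there. By stage 23 the medians were 12.79 and 12.04 TPM, and at stage 33 they were 12.43 and 12.28 TPM, with interquartile ranges of 9 to 23.17 and 6.93 to 24.44 TPM that overlap. The median maxima were 18.4 and 17.7 TPM. Of the 9 members whose maximum lay before the tailbud, 8 had onset 16. Since onset, the maximum and the tailbud mean are all part of the choice, these differences and the similar later levels are descriptions.

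Nearly all members peaked in the tailbud, and they spread over its stages. The maximum fell at stage 23 in 47 members (22.1%), at stage 26 in 53 (24.9%), at stage 30 in 43 (20.2%) and at stage 33 in 61 (28.6%), while 9 had it at stages 16, 18 or 20. Models chosen in the same way but with another onset overlapped with the members in their peak stages and differed by degree. In the members, 95.8% peaked in the tailbud. Of 454 with onset at stage 12, 44.3% peaked in the tailbud and 9.03% at stage 33. Of 292 with onset at stage 14, 79.1% and 17.5% did, with 25% at stage 23 and 28.4% at stage 26. Of 302 with onset at stage 20 or 23, 96.4% peaked in the tailbud and 58.6% at stage 33. The median level at stage 33 was 46.4% of the maximum for onset 12, 64.8% for onset 14, 72.5% for the members and 100% for onset 20 or 23. The median share was highest at stage 20 for onset 12, at stage 26 for onset 14 and for the members, and at the last stage for onset 20 or 23. With spike-in scaling 133 of the 213 members, in place of 61, had their maximum at stage 33, so the even spread over the tailbud holds for the deposited scale. Onset and the tailbud share both enter the choice, so this order is described without a test.

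**Figure D3:**
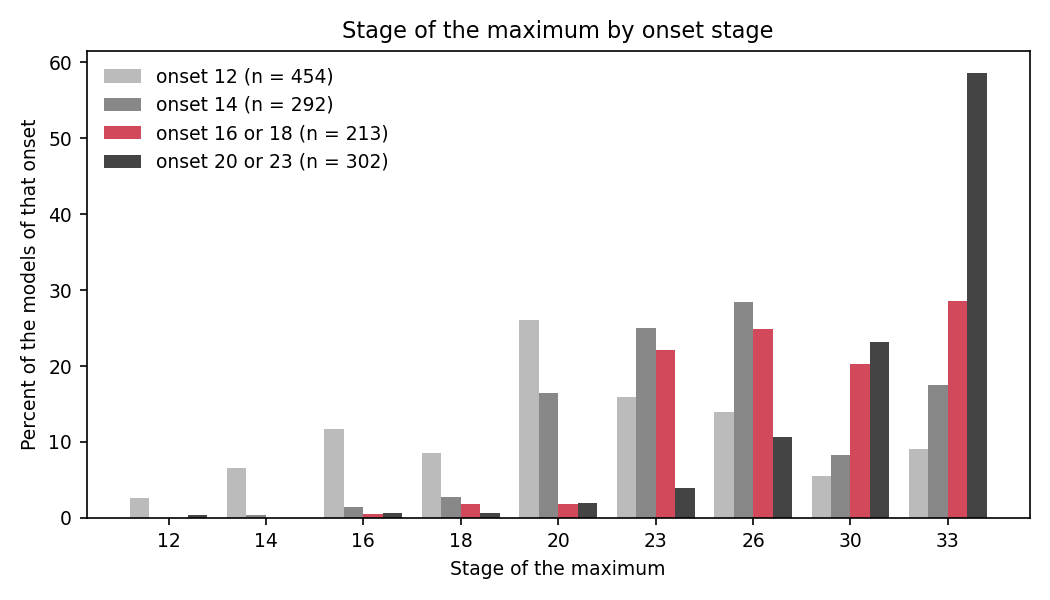
Percent of models with their maximum at each stage, for 4 sets chosen by the same limits and differing in onset stage. The 213 members (onset 16 or 18) lie evenly over stages 23 to 33 on the deposited scale, between 20.2% and 28.6%, while the 454 models with onset 12 peak most often at stage 20 (26%) and the 302 with onset 20 or 23 at stage 33 (58.6%).

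Within the tailbud the members went separate ways, some falling off soon after stage 23 and others still climbing at stage 33. The choice used the mean of these 4 libraries and the maximum, but not the order of the 4 values, and the trend with stage was tested. The maximum lay in these libraries in 204 of the 213 members. Asking for at least 10 TPM there favours uneven values, and with them changes in either direction. The test is therefore not free of the choice. A line was fitted with limma to log2(TPM + 1) over the 4 stage numbers for all 21374 models that reached 1 TPM in 2 or more of the 4 libraries, among them all 213 members, and the p-values were adjusted over all of these models. The change is given as the fitted difference from stage 23 to stage 33. The spread behind each test is the scatter of single libraries around a line, not a spread between embryos of 1 stage.

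At a limma adjusted p under 0.05, 31 members (14.6%) were higher with stage, against 5.47% of all models tested, and 24 (11.3%) were lower, against 6.00%. The remaining 158 members did not pass. Of the 13833 models within the members' range of tailbud means, 5.44% were called higher and 7.47% lower. Those models were matched on the range of the tailbud mean only, not on the maximum. In this fit larger changes were also more frequent in both directions: the fitted change was above 1 in 40 members (18.8%) and below -1 in 48 (22.5%), against 8.77% and 9.46% of all models, and against 7.26% and 10.5% of the 13833 models within the members' range of tailbud means (3.35 to 67.7 TPM). Entered in the same fit, relative to all spike-ins, 0 of the 16 spike-ins of 10 to under 100 TPM were called by limma, with 0 at an unadjusted p under 0.05, and their changes lay between -0.85 and 0.21. At the shares called over all models, few calls would be looked for among 16, so the calls do not set spike-ins apart from models. Shares of the spike-ins also leave out any shift of a whole library. Members ran down to a tailbud mean of 3.35 TPM, below the level of these spike-ins. The choice used the maximum, which lay in these 4 libraries in 204 of the 213 members. Its part in the excess over other models was not tested, and models of other onsets were not set beside the members here. From stage 23 to 33 the median share of the maximum went from 75.8% to 46.4% for onset 12 and from 84.1% to 64.8% for onset 14. It went from 33.6% to 100% for onset 20 or 23, and from 70.5% to 72.5% for the members. The median change was -0.01 over the members and -0.20 over all models on the deposited scale. It was 0.89 over the members with spike-in scaling and 0.72 when stage 20 was added to the fit, so a median near 0 holds for the deposited scale and these 4 libraries.

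The 31 members called higher had medians of 8.47, 14.27, 25.58 and 32 TPM at stages 23, 26, 30 and 33. They had been low at stage 20, at 2.85 TPM. The 24 called lower had medians of 14.19, 12.1, 5.85 and 4.96 TPM in the same order, after 6.98 TPM at stage 20. The 158 others had medians of 12.91, 14.8, 12.29 and 11.89 TPM, which moved little, but single models did not stay level: the fitted change was above 1 in 10 of them and below -1 in 24 without passing the test. All 3 steps went the same way in 27 of the 31 and 15 of the 24. Of the 31, 28 had their maximum at stage 33 and 3 at stage 30, and of the 24, 19 had it at stage 23, 2 at stage 26 and 3 before the tailbud. Among the 99 with onset 16, 11 (11.1%) were called higher and 8 (8.08%) lower. Among the 114 with onset 18, 20 (17.5%) were higher and 16 (14%) lower. Of all models tested, 5.47% and 6.00% were called, and of those within the members' range of tailbud means 5.44% and 7.47%. The share called lower for onset 16 lay near the last of these. The difference between the onsets was not tested.

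**Figure D4:**
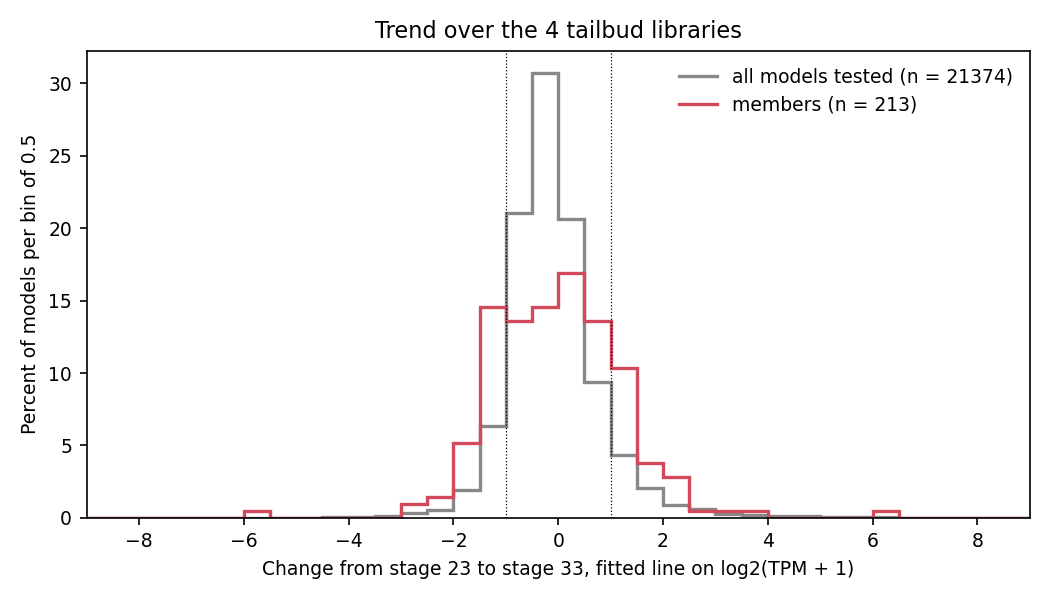
Fitted change from stage 23 to stage 33 on the log2(TPM + 1) scale for the 213 members and for all 21374 models tested, as the percent of models in bins of 0.5; dotted lines mark -1 and 1. The members form the broader distribution, with 18.8% above 1 and 22.5% below -1, against 8.77% and 9.46%. Their choice used the maximum, which lay in these tailbud libraries in 204 of the 213, and its part in this breadth was not tested.

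Among the called members with 3 steps one way, the largest rise was that of XeXenL6RMv10032684m, with 0.56, 4.85, 57.17 and 96.07 TPM at the 4 tailbud stages in order. Its fitted log2 change was 6.28 ± 0.50 (SE), at a limma adjusted p = 0.00639. This model also has the highest maximum of the set, though not the highest tailbud mean. Its onset rests on 1.27 TPM at stage 16 and 1.22 at stage 18, and at stage 20 its value was 0. It is a member by the letter of the rule, while its steady rise began after stage 23. XeXenL6RMv10011736m measured 5.75, 15.02, 53.09 and 87.14 TPM over the same stages, after 1.32, 2.88 and 3.12 TPM at stages 16, 18 and 20. Its change was 3.80 ± 0.26 (limma adjusted p = 0.00584). Both rises passed in each of 15 alternative settings, with adjusted p from 2.25e-12 to 0.0342 for the first and from 1.41e-05 to 0.0357 for the second.

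The largest steady falls were smaller than these rises. XeXenL6RMv10053093m measured 0.96, 4.65 and 14.48 TPM at stages 16, 18 and 20, peaked at 28.26 TPM at stage 23 and then measured 20.66, 10.76 and 5.78 TPM. In the tailbud its log2 level fell by 2.12 ± 0.22 (SE), at a limma adjusted p = 0.00916. XeXenL6RMv10013427m measured 2.65 and 2.63 TPM at stages 18 and 20, peaked at 13.07 TPM at stage 23 and then measured 6.84, 3.54 and 2.75 TPM; it fell by 1.92 ± 0.28 (limma adjusted p = 0.0173). It had also shown 1.12 TPM at stage 0 and 4.21 TPM at stage 6.5. At stage 33 the first was below its level of stage 20 and the second close to it. The calls of these 2 falls were lost in 5 and 4 of 15 alternatives, with adjusted p from 0.00607 to 0.636 and from 0.0162 to 0.684. Without stage 23 the changes were -2.38 and -1.54, neither of them called.

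The counts of calls depended on single libraries and on the scaling. Without stage 23, 3 members (1.41%) were higher and 0 lower by limma, against 0.571% and 0.15% of all models. In that fit 63 of the 213 members and 2835 of the 21374 models had an unadjusted limma p under 0.05. Without stage 33 the counts of members called were 12 (5.63%) and 7 (3.29%), against 1.3% and 1.05%. Without stage 26 they were 22 (10.3%) and 11 (5.16%), against 3.65% and 2.43%, and without stage 30 they were 31 (14.6%) and 28 (13.1%), against 5.24% and 6.54%. Each such fit has 3 libraries. With stage 20, which carries the same suffix, added to the 4 libraries, 69 members (32.4%) were higher and 9 (4.23%) lower, against 13.3% and 18.7% of all models. Changes below -1 were found there in 6.57% of the members and 8.88% of all models, so the excess of falling members was not seen. The members were still low at stage 20, at a median of 28.1% of the maximum against 70.5% at stage 23, and the choice favours such a rise. With stage 20 added, the members' median fitted change was 0.72 in place of -0.01. That fit is not one of the tailbud alone, and the part of the choice in it was not tested. In a fit of all 18 libraries with a mean for each period, 11 members (5.16%) were higher and 1 (0.469%) lower. Of all models, 4.66% and 0.697% were called, so no excess of calls remained. The fitted tailbud changes are the same in that fit, above 1 in 18.8% and below -1 in 22.5% of the members. Its spread also takes in the scatter within earlier periods, and the part of this in the lost calls was not tested. Over all models the calls of lower went from 6.00% to 0.697%. Median-of-ratios scaling called 39 members (18.3%) higher and 17 (7.98%) lower, against 1508 (7.06%) and 865 (4.05%) of all models. Quantile normalization called 39 (18.3%) and 14 (6.57%), against 1249 (5.84%) and 872 (4.08%). Scaling to the spike-ins called 11 (5.16%) and 1 (0.469%), against 708 (3.31%) and 57 (0.267%), so there the shares lay closer together. As deposited, 1169 and 1282 of all models were called. The median change over all models was -0.03 with median-of-ratios scaling and 0.61 with spike-in scaling, where the members' medians were 0.17 and 0.89; the members' median lay above that of all models in each.

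The spread between tailbud libraries is given as a description, since the choice asked for a maximum of at least 10 TPM and 204 of the 213 members had that maximum in these libraries. The highest of the 4 values lay within 2-fold of the lowest, on TPM + 1, in 98 members (46%) and in 75% of the 21374 models. It was at least 4-fold above the lowest in 19 members (8.92%) and in 4.62% of the models. Stage 30 needs care in such a range: from stage 26 to 30, 6 of the 16 spike-ins fell by more than 2-fold as shares of the spike-ins, and from stage 30 to 33 another 6 of 16 rose by as much, while 12.7% and 2.35% of the members fell and 5.63% and 4.69% rose at these steps.

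A few members were not sustained in the plain sense. XeXenL6RMv10037076m measured 69.82, 80.81 and 23.32 TPM at stages 16, 18 and 20 and 21.18, 77.95, 0 and 22.23 TPM in the tailbud. Earlier it showed 15.35 TPM at stage 0 and 80.68 TPM at stage 8, with 0 in the remaining libraries before stage 16. XeXenL6RMv10022286m, listed at 0 up to stage 14, measured 43.06, 49.61 and 0 TPM at stages 16, 18 and 20 and 24.52, 36.73, 0 and 0 TPM in the tailbud. It was among the 24 called lower, with the largest fitted fall of all members at -5.84 (limma adjusted p = 0.0385), which rests on these jumps; the call was kept in 8 of 15 alternatives. XeXenL6RMv10024985m, named after its values were seen, behaved likewise, with 23.38, 12.23 and 0 TPM at stages 16, 18 and 20 and 43.88 TPM at stage 30. With XeXenL6RMv10032684m these are the 4 members listed at 0 at least 2 stages after their onset. An exact 0 in such a table can be a failed estimate, and in this tetraploid-derived genome near-identical gene copies can share reads. Whether either applies to these 4 was not tested. Without the 4, the counts of members called were 30 higher and 23 lower. With a limit of 1 TPM in place of 0, 6 members were below it at least 2 stages after their onset. Besides the 4 these were XeXenL6RMv10011657m and XeXenL6RMv10043703m, both named after their values were seen. In the tailbud the first measured 10.04, 1.95, 0.6 and 0.8 TPM and the second 15.47, 5.24, 0.68 and 1.75 TPM.

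Few members were abundant at the onset stage itself: 6 of the 99 with onset 16 were at 10 TPM or more at stage 16, and 2 of the 114 with onset 18 at stage 18. XeXenL6RMv10021968m had its maximum there, with 36.15 TPM at stage 16 after 0 in each earlier library, and then moved between 9.29 TPM at stage 18 and 24.96 TPM at stage 26. XeXenL6RMv10010407m reached its maximum of 11.38 TPM at stage 18 and declined to 3 TPM at stage 33, but earlier showed 11.14 TPM at stage 12, followed by 0 at stages 14 and 16. XeXenL6RMv10016324m, the next with onset 18, was at 36.7% of its maximum at onset, with 6.21, 3.34 and 16.01 TPM at stages 18, 20 and 23. XeXenL6RMv10040871m, second in maximum, started from 1.57 and 6.33 TPM at stages 18 and 20 and measured 24.51, 54.11, 35.26 and 90.59 TPM in the tailbud, a change of 1.38 ± 0.51 that did not pass (limma adjusted p = 0.128) and passed in 2 of 15 alternatives.

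**Figure D5:**
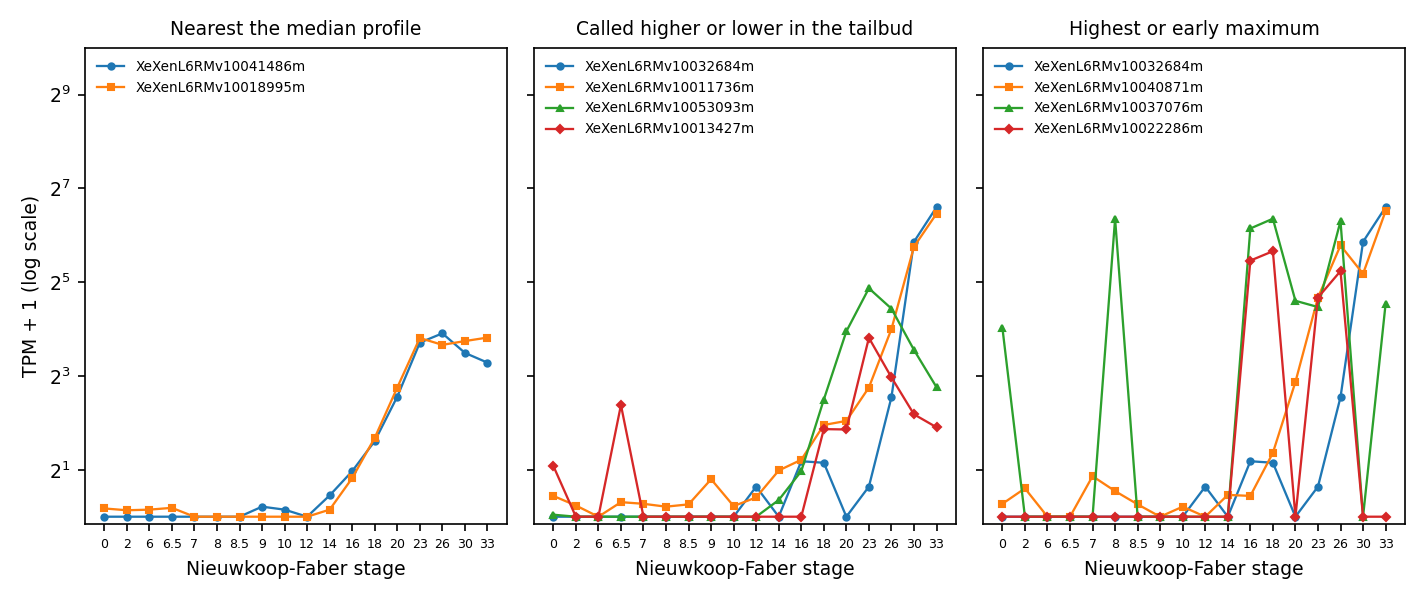
TPM + 1, on a log scale, of named members in the 18 libraries: the pair nearest the median profile, those with the largest rise or fall in the tailbud among calls with 3 steps one way, and those with the highest or an early maximum. XeXenL6RMv10032684m is drawn in both the middle and the right panel. The left pair climbs smoothly to about stage 23, after which XeXenL6RMv10018995m keeps its level and XeXenL6RMv10041486m ends lower, at 8.75 TPM, the middle panel parts after stage 23 into models ending at 96.07 and 87.14 TPM and models ending at 5.78 and 2.75 TPM, and in the right panel XeXenL6RMv10037076m and XeXenL6RMv10022286m drop to 0 between high values.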

How the data were processed

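The authors deposited 1 table of TPM for 31357 gene models and 88 ERCC spike-in entries in 18 libraries; all its columns were matched to a sample by stage. The submitters' processing notes list RSEM, Bowtie, Trimmomatic and CASAVA 1.8.2, without their roles; the build used is not given in the sources. The deposited columns sum to 1000000 TPM at stages 0 and 2 and to at most 1010294 in later libraries. TPM keeps no sequencing depth, so no counting interval is given, and the number of libraries limits the precision.

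From these values the members were chosen by the limits given above. The members, the comparison sets and the tests were chosen with earlier results of these data known. The trend test was run in R 4.3.3 with limma 3.58.1; log2(TPM + 1) was fitted with a linear term in the stage number over 4 tailbud libraries (2 residual degrees of freedom) and a mean-variance trend, with two-sided p-values and Benjamini-Hochberg adjustment over 21374 models; the script was checked on simulated data. Fold changes on this scale understate the change of low models. Named models follow a fixed rule: the 2 highest maxima, the 2 nearest the median profile, the 2 highest shares at each onset, the 2 largest called rises and falls with 3 steps one way, and the 2 highest among early maxima and among models at 0 after onset. Scaling, filters, pseudocount, libraries left out and the limits of the choice were varied. Spike-ins in the fit and leaving out models at 0 after onset were added after seeing the data.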

Additional observations from a re-analysis of the deposited data

How the results depend on the processing

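The choice gave 213 models as deposited and 199 to 238 under 9 of 10 alternatives; spike-in scaling gave 526, of which 164 were shared, or 77% of the members and 31.2% of the longer list. An onset threshold of 2 TPM gave 215 models but shared only 109 with the members (51.2%), and one of 0.5 TPM gave 207 and shared 149, so which models count as mid neurula onset depended on the threshold. The number peaking in the tailbud stayed within 1.5 times of 204 in each alternative run. Spike-in scaling moved the peaks at stage 33 from 61 to 133, the members first at 50% of the maximum at stage 23 from 110 to 52, and the median share of the maximum from 4.9% to 1.5% at stage 16, from 11.4% to 4.1% at stage 18 and from 28.1% to 17.2% at stage 20.

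The tailbud trend had 1169 models (5.47%) higher and 1282 (6.00%) lower, and 31 (14.6%) and 24 (11.3%) members. Spike-in scaling gave 708 (3.31%) and 57 (0.267%) models and 11 (5.16%) and 1 (0.469%) members. No filter on low values gave 678 (2.26%) and 537 (1.79%) models and 20 (9.39%) and 9 (4.23%) members, with 30009 models tested. Stages 20 to 33 gave 2833 (13.3%) and 3995 (18.7%) models and 69 (32.4%) and 9 (4.23%) members. A fit of all 18 libraries with period means gave 995 (4.66%) and 149 (0.697%) models and 11 (5.16%) and 1 (0.469%) members. There the excess of member calls was gone with the fitted changes unchanged, under a spread that includes the earlier periods. Quantile normalization gave 14 members (6.57%) lower, against 4.08% of all models. Leaving out 1 tailbud stage at a time gave 122 to 1119 models higher (0.571% to 5.24%) and 32 to 1398 lower (0.15% to 6.54%). Among the members it gave 3 to 31 higher (1.41% to 14.6%) and 0 to 28 lower (0% to 13.1%). The causes were not tested, and the last fits also have fewer libraries. None of the 6 changes printed for single models reversed its direction in 15 alternatives. Depth is unknown, and 1 library a stage gives no spread between embryos.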

Other observations

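Traces of the members were listed before their onset. At stage 0, 104 of the 213 (48.8%) were above 0, against 37 (17.4%), 26, 40 and 34 at stages 2, 6, 6.5 and 7. The stage 0 values were small, with 3 members at 1 TPM or more and an upper quartile of 0.13 TPM. Stage 0 is the only one of these libraries with the suffix rr, and over all models 65% were above 0 there against 61% at stage 2. The part of the suffix was not tested. Models that jump between very high values and 0 held 21.9%, 44.8% and 38.9% of the gene-model TPM at stages 2, 6 and 10. Such models also held 19.9% at stage 8.5 and 3.9% at stage 30, which is 1 of the 4 libraries of the tailbud trend. They held 0% at stages 0, 6.5, 7, 12, 14 and 16. Their part in the counts of members above 0 was not tested.

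The number of members above 0 grew before and up to the onset, with 42, 74, 137 and 187 at stages 10, 12, 14 and 16, of which 6, 14 and 99 were at 1 TPM or more at stages 12, 14 and 16. Over all models the share above 0 was 63.2%, 65.8%, 66.9% and 70% at these 4 stages. In all, 33 members were listed at 0 in each of the 11 libraries up to stage 14. A single value of 1 TPM or more, not held in the next stage, was seen in 29 members between stages 8 and 14, 14 of them at stage 14 itself. XeXenL6RMv10016365m, named after its values were seen, showed 22.03 TPM at stage 12 although its onset was scored at stage 16.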
